A study of Mus musculus with 16 samples.

Results

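The comparison asked what a high-fat diet (HFD) did to the liver transcriptome of female mice whose hypothalamus had partly lost oestrogen receptor alpha. All libraries whose labels gave the genotype Mutant were taken, 4 fed HFD and 4 fed chow, which made 8 of the 16 liver libraries. The mutants carried floxed alleles of Esr1, the oestrogen receptor alpha gene, and a Cre recombinase under Nkx2-1, a promoter active in the ventral forebrain that includes the mediobasal hypothalamus. The 8 control libraries came from Esr1 fl/fl females without the Cre, 4 on each diet, and served to show whether a diet difference was also seen without the mutation. Both genotypes carried the floxed alleles, and all mice were 27 weeks old. The HFD groups ate the HFD for 17 weeks, from 10 weeks of age, and the chow groups stayed on standard breeder chow. The Cre is not meant to act in hepatocytes, so the liver level of Esr1 does not check the genotype labels. The study used HFD as a challenge to the high bone mass of the mutants, and the liver was profiled alongside other tissues as a possible source of secreted proteins. The mice were on a mixed genetic background. Each library is a separate liver sample by its label. Libraries are numbered in sample order within a group. The labels do not say whether mice of a group were litter mates or shared a cage.

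A liver that receives much dietary fat takes up fatty acids through binding and transport proteins, stores them as triglyceride in coated lipid droplets, burns a part in mitochondria and peroxisomes under control of the nuclear receptor PPAR alpha, and exports the rest in lipoproteins. When cells hold enough sterol, the transcription factor SREBP2 stays in the endoplasmic reticulum and the enzymes of cholesterol synthesis are made at a lower rate. The liver also secretes the plasma proteins of the acute phase response, which STAT3 drives after cytokine signals, and follows a daily rhythm set by feeding and by the core clock.

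Values are normalised expression per gene, on a length-adjusted scale that was also adjusted between libraries, and differences are HFD minus chow on log2(value + 1). The libraries were alike in their totals, which ran from 905897 to 1059978, and each had 11941 to 12443 genes at a value of 1 or more. Hepatocyte markers were high in each library, with Alb, the serum albumin gene, between 45438 and 79775. A few libraries stood apart within their groups. Chow libraries 1 and 2 stood out in neutrophil and acute phase transcripts. Chow library 2 correlated less with chow libraries 1, 3 and 4 (median Spearman coefficient 0.935 over 3 pairs) than those did with each other (0.953 over 3 pairs). Likewise HFD library 1 correlated less with HFD libraries 2 to 4 (0.948 over 3 pairs) than those did with each other (0.978 over 3 pairs). HFD library 1 also has a title number from another series than HFD libraries 2 to 4, and chow library 1 from another than chow libraries 2 to 4. What the numbers stand for is not given in the sources used here, and because each series lies within 1 diet, series and diet cannot be told apart. Within a diet the series were split unevenly between the genotypes. Of the 4 HFD libraries of each genotype, 1 of the mutants and 3 of the controls were of the series of HFD library 1, and of the 4 chow libraries, 1 and 2 were of the series of chow library 1. Interactions with genotype are therefore also given with a term for the series within each diet, an alternative chosen after seeing the data, where that changes them. Single livers carried much of what follows. Leaving out 1 mutant liver moved the number of higher or lower genes (unadjusted p under 0.05) in 32 of the 34 gene lists described. Moved means by more than 1.5 times, or to or from 0. Many of these counts were small, so 1 gene crossing that p could be enough, and the 32 is a description.

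No gene passed the adjusted threshold between HFD and chow in the mutants. Among the transcripts whose diet groups did not overlap were Ncmap, Sult3a1 and Sult3a2, which were lower in all 4 HFD livers, and Adgrv1 and Fabp2, which were higher. In the limma fit of 12704 genes, 0 genes (0%) had an adjusted p under 0.05, and the smallest adjusted p was 0.105. With an unadjusted p under 0.05, 344 genes were higher on HFD (2.71%) and 528 lower (4.16%). The 4 HFD libraries lay wholly above the 4 chow libraries for 212 genes (1.67%) and wholly below them for 236 genes (1.86%). Among those separated genes, 12 were higher and 19 lower by at least 1 on the log2 scale, and these are the genes described first. The median difference over all tested genes was -0.011, and since the values had been adjusted between libraries, an overall shift could not have been seen. When single mutant livers were left out, the shares at an unadjusted p under 0.05 ran from 2.25% to 3.38% for higher genes and from 2.53% to 6.94% for lower genes, and without chow libraries 1 and 2 they were 2.83% and 2.62%. In controls 6.4% of genes were higher on HFD and 6.52% lower. Counts of list members at that p, given below, stand beside these shares.

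Ncmap gave the smallest p of all genes. It encodes a protein of non-compact myelin (ENSMUSG00000043924, GRCm38 chromosome 4, 135369576 to 135398227, minus strand). Its values were 11.4, 7.14, 9.96 and 6.11 in chow libraries 1 to 4 and 0.2, 0.0556, 0.0826 and 0.224 in HFD libraries 1 to 4. Each chow liver was thus well above 1 and each HFD liver was near 0, and the chow mean was 61.6 times the HFD mean. The difference was -3.05 (SE 0.466, limma adjusted p = 0.105). Fitted on the 8 mutant libraries alone, the same difference had a limma adjusted p of 0.000856, the only gene called there. Control livers showed the same order, 4.32 ± 3.51 on chow and 0.143 ± 0.146 on HFD (SD, n = 4), and the interaction was -1.21 (unadjusted p = 0.0851).

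Sulfotransferase genes of a cluster on chromosome 10 were lower in all 4 HFD livers than in any chow liver. Sult3a1 and Sult3a2 encode cytosolic sulfotransferases that are more abundant in female than in male mouse liver. Sult3a1 (ENSMUSG00000069668, GRCm38 chromosome 10, 33857721 to 33879532, plus strand) was 1814, 2104, 1973 and 2164 on chow and 637, 99, 49.9 and 1639 on HFD, a difference of -2.90 (SE 0.756, limma adjusted p = 0.448). Its neighbour Sult3a2 was 738, 978, 669 and 654 on chow and 204, 18, 7.3 and 479.5 on HFD, a difference of -3.58. In both genes HFD libraries 2 and 3 were lowest, HFD library 4 came closest to chow, and the groups did not overlap. Gm10327, a processed pseudogene between them, was 4.57, 4.57, 4.84 and 3.77 on chow and 1.67, 0.633, 0.232 and 3.7 on HFD, in the same order of libraries. Reads of such similar sequences are shared out by estimation, so the division among the 3 is uncertain. In control livers Sult3a1 was 1758 ± 505 on chow and 629.9 ± 220.4 on HFD (SD, n = 4). Its interaction was -1.40 (unadjusted p = 0.21).

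The remaining leading genes that were lower on HFD encode proteins of several kinds. Cog6, a subunit of the Golgi tethering complex, was 32.5, 41, 31.7 and 30.9 on chow and 16.8, 12.8, 10.8 and 26.4 on HFD. Vasn, which encodes vasorin, a membrane protein that binds TGF-beta, was 24.3, 14.3, 19.2 and 14.2 on chow and 6.64, 9.2, 6.37 and 8.95 on HFD. Acvr2b, a type 2 receptor for activins, was 6.91, 6.85, 5.46 and 5.12 on chow and 1.88, 2.99, 2.1 and 2.79 on HFD. The groups were apart in each by the way the genes were chosen, and the differences were -1.05, -1.09 and -1.05 (limma adjusted p = 0.407, 0.407 and 0.421). Slc34a2, a sodium phosphate cotransporter, was between 2.31 and 3.81 on chow and between 0.0933 and 0.988 on HFD. Cd207, the langerin gene of dendritic and some macrophage cells, was 7.61, 20.6, 10.1 and 3.74 on chow and 1.01, 2.46, 3.42 and 2.16 on HFD, and Serinc2, a member of the serine incorporator family, differed by -1.04. The processed pseudogene Gm5898 was between 1.116 and 2.69 on chow, and 3 of the 4 HFD libraries list it at 0. Eci3, a peroxisomal enoyl-CoA isomerase, stood at 35.8, 37.3, 34.5 and 38.5 on chow and at 1.71, 12.7, 14.5 and 19.7 on HFD, and in controls it differed by -2.54. The chow livers of Eci3 lay close together, and HFD library 1 was the lowest. Of the 19 genes, the other 7 were Fcor, Phkg1, Efna3, Clic3, Igfbp1, Orm1 and Gadd45g. Fcor, which encodes a corepressor of FOXO1, was 19.3, 18.8, 11.5 and 11.7 on chow and 5.82, 2.82, 7.5 and 7.11 on HFD. Phkg1, a catalytic subunit of phosphorylase kinase, was 8.38, 8.72, 9.6 and 8.93 on chow and 6.97, 2.03, 1.18 and 7.39 on HFD. Efna3, an ephrin ligand, was 50.3, 24.7, 20.2 and 13.9 on chow and 13.4, 11.7, 9.32 and 12.7 on HFD. Clic3, of the chloride intracellular channel family, was high in chow library 1 only, which held 31.9 while the other chow libraries held 3.04 to 5.32.

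Igfbp1 and Gadd45g, of insulin and stress signalling, were lower in all 4 HFD livers. Igfbp1 encodes an insulin-repressed protein that binds insulin-like growth factors in plasma. It was 129, 53.4, 42.2 and 85.3 on chow and 25.5, 18.3, 24.6 and 12.5 on HFD, so the highest HFD liver lay under the lowest chow liver, and the difference was -1.81 (SE 0.586, limma adjusted p = 0.623). Control livers differed by -1.39. Gadd45g, a growth arrest and DNA damage gene of stress responses, was 17.2, 35.2, 10.1 and 16.3 on chow and 4.5, 8.56, 9.55 and 4.1 on HFD, a difference of -1.37. In controls its order was the opposite, 5.71 ± 2.31 on chow and 13.9 ± 6.04 on HFD (SD, n = 4).

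The genes that were higher on HFD were led by Adgrv1 and Fabp2. Adgrv1 encodes a very large adhesion G protein-coupled receptor known from the inner ear and retina (ENSMUSG00000069170, GRCm38 chromosome 13, 81095068 to 81633154, minus strand). It was 1.93, 2.76, 2.94 and 2.39 on chow and 4.36, 9.06, 11.2 and 6.58 on HFD, with HFD library 1 lowest of the HFD livers but above each chow liver. The difference was 1.27 (SE 0.216, limma adjusted p = 0.171), against 0.33 in controls, and the interaction was 0.94 (unadjusted p = 0.00721), or 0.63 with the series term (unadjusted p = 0.0274). Without HFD library 1 it was 1.49 (limma adjusted p = 0.00781). Fabp2, the intestinal fatty acid binding protein gene (ENSMUSG00000023057, GRCm38 chromosome 3, 122895072 to 122899506, plus strand), was 37.7, 36.5, 90.6 and 67.1 on chow and 116, 169.9, 142 and 147 on HFD. The lowest of the 8 were chow libraries 1 and 2, and the difference was 1.39 (SE 0.264, limma adjusted p = 0.311). Controls showed 75.1 ± 25.8 on chow and 147 ± 8.85 on HFD (SD, n = 4), a difference of 1.01.

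Among the other 10 leading genes with higher values, Hsd3b3, a steroid dehydrogenase, was 24, 21.3, 47.3 and 36.6 on chow and 64.3, 53.1, 51.1 and 120.2 on HFD. Ren1, the renin gene, was 3.4, 4.05, 4.75 and 5.45 on chow and 14.9, 10.5, 24.2 and 17 on HFD. Mmp12, a macrophage elastase, was 0.449, 0.432, 1.1 and 1.24 on chow and 3.73, 1.43, 1.41 and 6.28 on HFD, with HFD libraries 1 and 4 highest. Chow livers of these 3 genes were all below the lowest HFD liver. Slc22a29, of the organic anion transporter family, and the tropomyosin gene Tpm2 differed by 1.099 and 1.20. Lamb3, a laminin chain, was 9.83, 1.42, 10.8 and 5.51 on chow and 11.2, 25.2, 21.2 and 14.3 on HFD. Lyrm9, of the mitochondrial LYR motif family, differed by 1.116, and Gm10217 and the pseudogene Gm46415 by 1.995 and 1.47, all at low values. Rpl29, a ribosomal protein gene with many pseudogenes, was 5.72, 4.59, 5.32 and 6.05 on chow and 6.17, 179, 194 and 6.13 on HFD. Only HFD libraries 2 and 3 of the 8 were high, and reads of Rpl29 and its copies cannot be divided with certainty. The limma adjusted p-values of these 10 genes ran from 0.42 to 0.65.

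**Figure D1:**
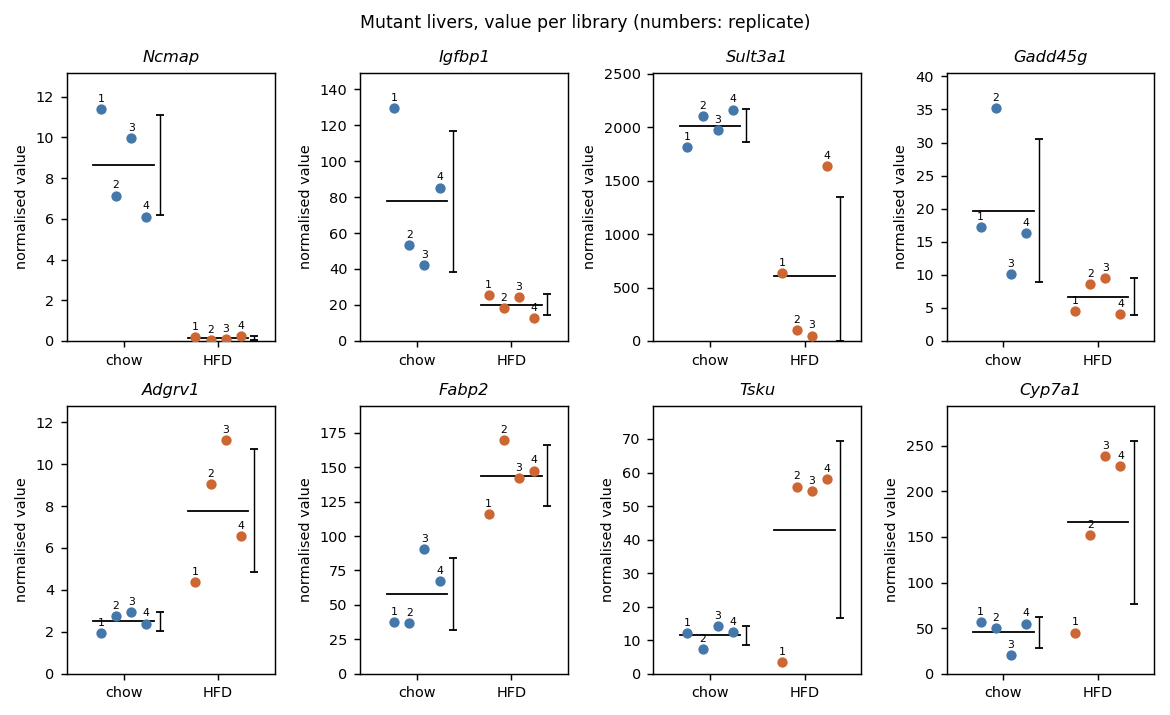
Normalised value (linear axis from 0) of 8 genes in each mutant liver on chow (blue) and HFD (orange); numbers are replicates, horizontal lines group means and side bars 1 SD (n = 4), cut at 0 where the SD exceeds the mean. Ncmap, Igfbp1, Sult3a1, Gadd45g, Adgrv1 and Fabp2 have no overlap between diets, while HFD library 1 of Tsku (3.54) and of Cyp7a1 (45.1) does not lie above the chow libraries.

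Tsku and Cyp7a1 were high in 3 of the 4 HFD livers. Tsku encodes tsukushi, a secreted leucine-rich protein made by the liver (ENSMUSG00000049580, GRCm38 chromosome 7, 98350668 to 98361328, minus strand). It was 12.1, 7.44, 14.2 and 12.3 on chow and 3.54, 55.8, 54.5 and 58 on HFD. HFD libraries 2 to 4 were close together and above each chow liver, and HFD library 1 was below each chow liver. With all libraries the difference was 1.31 (SE 0.608, limma adjusted p = 0.723), and without HFD library 1 it was 2.22 (limma adjusted p = 0.00168). With chow libraries 2 to 4 against HFD libraries 2 to 4, which leaves 1 title series on each diet, it was 2.26 (limma adjusted p = 0.00824). Controls had 17 ± 4.64 on chow and 16.6 ± 3.52 on HFD (SD, n = 4), and the interaction was 1.32 (unadjusted p = 0.146), or 0.25 with the series term (unadjusted p = 0.719). Cyp7a1, the rate-limiting enzyme of bile acid synthesis, was 56.8, 50.3, 20.6 and 55 on chow and 45.1, 152, 239 and 228 on HFD, a difference of 1.69 (limma adjusted p = 0.63). It differed by -0.88 in controls, and the interaction was 2.56 (unadjusted p = 0.0107), or 1.36 with the series term (unadjusted p = 0.0593). Without HFD library 1 the Cyp7a1 difference by diet was 2.22. Esr1 itself was 19.6, 17, 9.98 and 8.02 on chow and 6.42, 22.9, 21.1 and 20.5 on HFD, with HFD library 1 again the lowest and the groups overlapping (0.30, limma adjusted p = 0.919). Without HFD library 1 the Esr1 difference was 0.70, and over the 8 libraries left out in turn it ran from 0.093 to 0.70. Control livers held 11.7 ± 3.45 of Esr1 on chow and 7.21 ± 0.825 on HFD (SD, n = 4).

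Genes of cholesterol synthesis were low in HFD livers 1 and 4 and nearer to chow levels in HFD livers 2 and 3. Of 24 tested enzymes and targets of SREBP2, 22 had a negative difference, with a median of -0.71. Unadjusted, 4 were lower (p under 0.05) and 0 higher, against 4.16% lower and 2.71% higher over all genes, and 0 passed the adjusted threshold. Sqle, squalene epoxidase, was 61, 72.1, 36.4 and 60.5 on chow and 1.87, 52.8, 33.9 and 5.57 on HFD (-2.05, limma adjusted p = 0.639). Hmgcs1, an HMG-CoA synthase of the early steps, was 301, 259, 186 and 355 on chow and 52.8, 296, 152 and 67.1 on HFD. Cyp51, the lanosterol demethylase, was 77.8, 77.2, 61.4 and 88.1 on chow and 8.48, 83.7, 66.8 and 16.8 on HFD. HFD libraries 1 and 4 were below each chow liver in all 3. HFD library 2 lay within the chow range, and HFD library 3 lay within it for Cyp51 and below it for Sqle and Hmgcs1. Across the list, HFD library 1 had the lowest value of the 8 mutant livers for 24 of 24 genes, and HFD libraries 1 and 4 were the lowest of the 4 HFD livers for 24 of 24. Srebf2, which encodes SREBP2, was 33.3, 30.2, 23.5 and 30.1 on chow and 16.5, 26.9, 22.1 and 18 on HFD. Without HFD library 1 the median was -0.36 and 0 genes had p under 0.05, and with 1 title series on each diet it was -0.31. The count of 4 lower genes was also 0 without HFD library 4 or without chow libraries 1 and 2, 1 without chow library 1 and 2 without chow library 4, but 17 of 24 without HFD library 2 (median -0.999, against 3.68% of all genes) and 13 of 24 without HFD library 3 (against 3.18%). In control livers the median was -1.23 and 21 of the 24 were lower with p under 0.05, against 6.52% lower and 6.4% higher over all genes in controls, and 0 of 24 had an interaction p under 0.05.

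**Figure D2:**
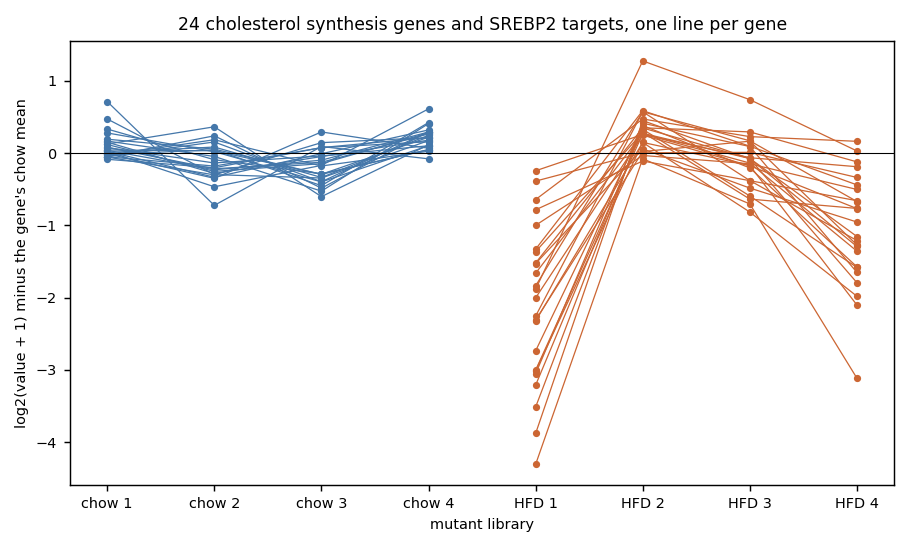
Level of 24 cholesterol synthesis genes and SREBP2 targets in the 8 mutant livers, as log2(value + 1) minus the mean of the gene on chow (vertical axis), with 1 line per gene and libraries on the horizontal axis. Lines drop at HFD libraries 1 and 4, and HFD library 1 is the lowest of the 8 for 24 of 24 genes.

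Because SREBP2 acts through a short sterol element near its target genes, the promoter of Hmgcs1 is shown (RefSeq sequence, GRCm38.p6, chr13:119690189-119690248, plus strand). Capitals mark CACCCCAC, the core of that element, which begins 136 bases before the annotated start.
Hmgcs1: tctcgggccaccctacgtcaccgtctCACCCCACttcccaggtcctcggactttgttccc
Among the 24 genes, 16 had a promoter in the sequence table. Of these, Hmgcs1 alone (6.25%) held the letters within 250 bases before the start on either strand. Over all tested genes with a promoter, 3.31% had them. With 1 gene found, the share says little about the list.

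Genes for fat storage and uptake had a positive log2 difference in 14 of 20, against 47.7% of all tested genes, and none of the genes for making fat reached an unadjusted p of 0.05. Of 20 tested genes of lipid droplets and lipid uptake, 6 were higher at an unadjusted p under 0.05 and 0 lower, with a median of 0.26. Over all genes 2.71% were higher and 4.16% lower. Besides Fabp2, Apoa4, an apolipoprotein made with dietary fat load, was 1649, 916, 1726 and 1404 on chow and 2187, 2164, 1912 and 3210.3 on HFD. The groups did not overlap, and the difference was 0.75 (SE 0.21, limma adjusted p = 0.539). Fitm1 and Fitm2, which encode proteins of the endoplasmic reticulum that promote droplet formation, differed by 0.99 and 0.35. Pparg, a nuclear receptor of fat storage, was 4.06, 7.04, 6.54 and 7.57 on chow and 10.9, 8.51, 6.87 and 7.85 on HFD, a difference of 0.40. Cd36, the fatty acid translocase, was 34.1, 33.3, 45.3 and 37.6 on chow and 48.5, 48.2, 41.9 and 51.3 on HFD (limma adjusted p = 0.747). Leaving out single livers gave 3 to 7 higher, the fewest without HFD library 1 (3.35% of all genes) and the most without chow library 3 (3.38%). Without chow libraries 1 and 2 the list median was 0.097. In controls the median was 0.29, with 6 genes higher at an unadjusted p under 0.05, against 6.4% of all genes in controls. Of 20 apolipoproteins and lipoprotein genes, 2 were higher and 0 lower (median 0.11), namely Apoa4 and Apoc2, the activator of lipoprotein lipase (0.54).

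Of 23 lipogenesis genes, 0 had an unadjusted p under 0.05 (median -0.15). Scd1, the stearoyl-CoA desaturase, was 310.3, 569, 679.5 and 740.1 on chow and 137, 817, 463 and 148 on HFD, with HFD libraries 1 and 4 below each chow liver. Fads2, a desaturase of polyunsaturated fatty acids, was 289.6, 391, 474 and 492 on chow and 240.3, 1040.0, 874 and 799 on HFD, with HFD libraries 2 to 4 above each chow liver and HFD library 1 below. Fasn, fatty acid synthase, and Srebf1, the gene of SREBP1, differed by -0.67 and 0.48. Without HFD library 1 the median of the list was 0.18, with 3 genes higher and 0 lower (against 3.35% and 4.27% of all genes). Without HFD library 2 it was -0.22 with 0 higher and 4 lower (against 2.29% and 3.68%). Without chow library 2 it was -0.27 with 0 higher and 3 lower (against 2.53% and 2.82%). Of 24 genes for bile acid synthesis and sterol export, 1 was higher, Cyp7a1, and 1 was lower, Abcb11 (list median 0.063), against 2.71% and 4.16% of all genes. Abcb11, the bile salt export pump, was 134, 144, 140.5 and 175 on chow and 125, 114, 132 and 117 on HFD.

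Fatty acid oxidation genes had a positive log2 difference in 35 of 41 tested, against 47.7% of all tested genes, with a median of 0.28, and the size of this difference came with low values in chow libraries 1 and 2. Unadjusted, 2 were higher and 0 lower (p under 0.05), against 2.71% and 4.16% of all genes. Bdh1, which makes the ketone body beta-hydroxybutyrate, was 168, 194, 275 and 245 on chow and 357, 339.1, 329 and 339.6 on HFD, without overlap (0.65, limma adjusted p = 0.512). Cyp4a14 and Cyp4a10, fatty acid hydroxylases and classic targets of PPAR alpha, split the chow group. Cyp4a14 was 5.97, 1.61, 299 and 280.4 on chow and 167, 307, 235 and 171 on HFD, and Cyp4a10 was 31.2, 8.82, 254 and 315.2 on chow and 161, 253, 215 and 207 on HFD. Chow libraries 3 and 4 were as high as the HFD livers, and chow libraries 1 and 2 far below. For 25 of the 41 genes they were the 2 lowest of all 8 mutant livers. Without them the median was -0.11, with 0 genes higher and 5 lower (against 2.83% and 2.62% of all genes), and Cyp4a14 differed by -0.44. Without chow library 3 the median was 0.40 and without chow library 4 0.41, each with 11 genes higher and 0 lower. Without HFD library 1 there were 4 higher. In these fits 3.38%, 2.99% and 3.35% of all genes were higher. Control livers had a median of -0.028. Subunits of oxidative phosphorylation had the same order of libraries, with 37 of 38 positive, a median of 0.17, 1 higher at an unadjusted p under 0.05 (Ndufa10, a complex I subunit, 0.29) and chow libraries 1 and 2 lowest for 25 of 38. Their median without chow libraries 1 and 2 was -0.0079, and leaving out single livers gave 0 to 8 higher, the most without chow library 4 (2.99% of all genes).

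Acute phase genes and neutrophil markers were lower on HFD in the group means, and their medians lay near 0 without chow libraries 1 and 2. Of 24 acute phase genes, 10 were lower and 0 higher at an unadjusted p under 0.05, against 4.16% and 2.71% of all genes. The difference was negative for 23 (median -0.83). Orm2, an orosomucoid plasma protein, was 395, 4650.2, 17.6 and 33 on chow and 41.9, 8.29, 9.28 and 23.9 on HFD. Orm1 was 1716, 8712, 971 and 947 on chow and 818, 611, 711 and 899 on HFD. Socs3, the feedback inhibitor of STAT3 signalling, was 12.7, 29.1, 7.46 and 4.72 on chow and 6.4, 2.45, 2.85 and 3.71 on HFD. Chow library 2 was highest in each of the 3 and chow library 1 was second, while chow libraries 3 and 4 lay near the HFD range. Reads of Orm1, Orm2 and Orm3 may be shared, since they are close paralogs. Fga and Fgb, fibrinogen chains, differed by -0.84 and -0.75. Chow library 2 had the highest value of the 8 mutant livers for 23 of the 24 genes. Without it the median was -0.30 with 0 genes lower, and without chow libraries 1 and 2 it was 0.0073 with 2 higher and 0 lower. The control median was 0.37, and 6 of the 24 had an interaction p under 0.05, against 4.21% of all genes. With the series term this was 1 of the 24, against 3.51% of all genes. The count of 10 lower genes was 0 without chow library 2, 5 without HFD library 2 and 14 without chow library 3 or 4. Of all genes, 3.68% were lower without HFD library 2, 6.94% without chow library 3 and 5.51% without chow library 4.

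The neutrophil list had the most negative median of the 34 lists, with 2 chow livers far above the other 14 livers of the series. Summed over the measured markers, which include the granule genes S100a9, Camp, Ngp, Elane and Mpo, the values were 3038, 6504, 26.9 and 116 in chow libraries 1 to 4 and 14.3, 67, 53.5 and 154 in HFD libraries 1 to 4. All 8 control livers were between 4.6 and 25.8. S100a9 was 1339.5, 2639.9, 12.8 and 49.6 on chow and 7.77, 23.3, 21.6 and 68.1 on HFD, and Elane, neutrophil elastase, was 76.1, 131, 0.412 and 2.8 on chow and 0, 1.57, 0.868 and 3.01 on HFD. Of 8 tested markers, 8 were lower at an unadjusted p under 0.05, against 4.16% of all genes. The median was -2.97, although the groups overlapped for each. Ly6g has no row in the table used, and Cxcr2 was under the filter. Chow libraries 1 and 2 were the 2 highest of the 8 livers for 8 of 8 markers, and without them the median was -0.075 with 0 lower. Without chow library 1 or 2 alone 1 marker was lower, and without HFD library 1 there were 3. In bulk RNA, fewer cells of a type and less RNA per cell cannot be told apart. Of 23 Kupffer cell and macrophage markers, 4 were lower and 1 higher (median -0.58), against 4.16% and 2.71% of all genes. Ly6c2, a monocyte surface gene, was 47.9, 92.2, 2.62 and 5.19 on chow and 4.63, 4.38, 4.88 and 4.27 on HFD, and Timd4 of resident Kupffer cells was 16, 23.6, 6.79 and 10.7 on chow and 8.54, 6.96, 6.43 and 7.52 on HFD. The 1 higher gene was Mmp12. Without chow libraries 1 and 2 the macrophage median was 0.12 with 0 genes either way. The count of 4 lower was 0 without chow library 1, chow library 2, HFD library 3 or HFD library 4, 2 without HFD library 2, 7 without chow library 4 and 14 without chow library 3 (median -0.86, against 6.94% of all genes). The part of these cells in the other chow differences was not tested.

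Mt2 and Mt1, metallothioneins that acute phase signals and glucocorticoids induce, were also highest in chow library 2. Mt2 was 734, 5541, 174 and 207 on chow and 35.8, 32.9, 276 and 338.1 on HFD (-2.58, limma adjusted p = 0.625), and without chow library 2 the difference was -1.52. The list of immediate early and stress genes that holds Gadd45g, Junb and Mt2 had 4 of 21 lower and 0 higher, against 4.16% and 2.71% of all genes. Its median was -0.47, and -0.11 without chow libraries 1 and 2. Junb, an AP-1 subunit, was 54.6, 54.8, 25.7 and 28.2 on chow and 30.5, 10.1, 9.01 and 19.7 on HFD, with an interaction of -1.97 (unadjusted p = 0.0254), or -1.04 with the series term (unadjusted p = 0.157). Of 23 genes for protein folding and stress in the endoplasmic reticulum, 20 were negative (median -0.25). At an unadjusted p under 0.05, 2 were lower and 0 higher, against 4.16% and 2.71% of all genes. Pdia4, a disulfide isomerase, was 142, 137, 106 and 106 on chow and 104, 100.03, 85.1 and 93.7 on HFD, without overlap. Without chow libraries 1 and 2 this median was 0.0019, and leaving out single livers gave 0 to 6 lower, the most without chow library 3 (6.94% of all genes).

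**Figure D3:**
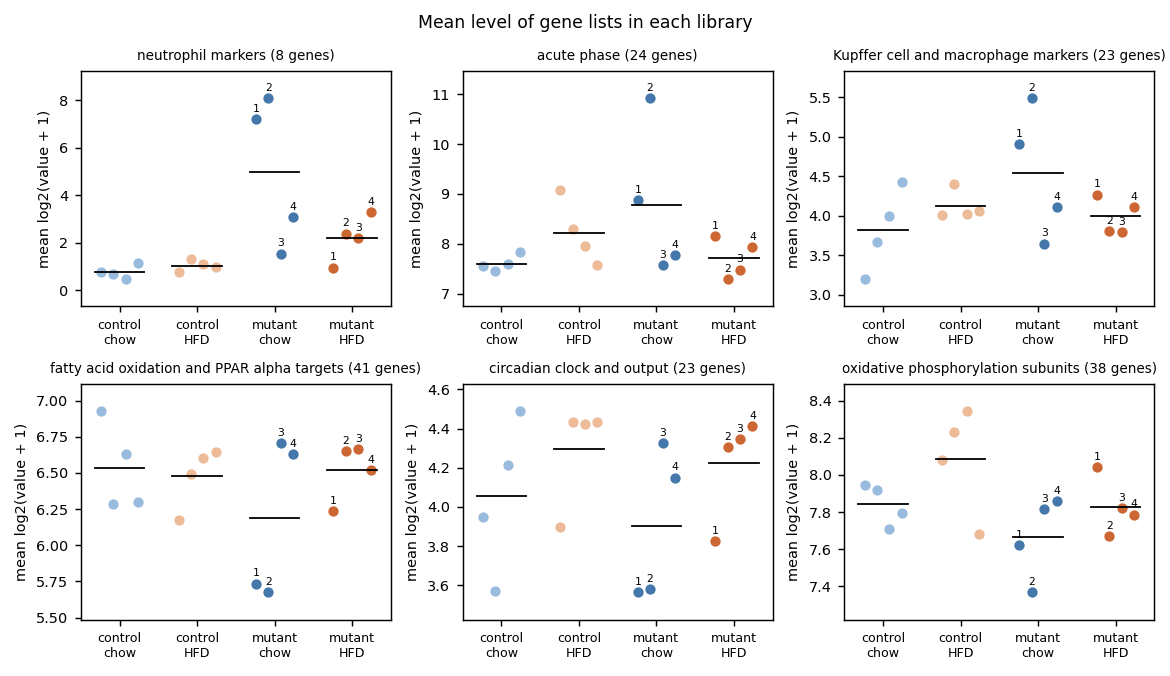
Mean log2(value + 1) of 6 gene lists (vertical axes, which do not start at 0) in each of the 16 livers, by genotype and diet, with replicate numbers in mutants and group means as lines. Chow libraries 1 and 2 of the mutants are highest for neutrophil markers (means 7.2 and 8.1) and lowest for fatty acid oxidation (5.73 and 5.67).

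STAT3 drives many acute phase genes, so the 2 list members with the letters TTCCNGGAA within 250 bases before their start are shown, with the match in capitals (RefSeq, GRCm38.p6). Fga is at chr3:83025903-83025953, plus strand, and Steap4, a metalloreductase, at chr5:7960330-7960390, plus strand.
Fga: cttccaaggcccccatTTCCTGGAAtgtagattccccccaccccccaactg
Steap4: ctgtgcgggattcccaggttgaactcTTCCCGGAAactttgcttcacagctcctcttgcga
Of 21 acute phase genes with a promoter, these 2 (9.52%) held the letters on either strand, against 1.34% of all tested genes with a promoter. A match is a description of the sequence and does not show binding.

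Clock genes separated the same chow libraries, and for several genes HFD library 1, from the rest. Dbp, a clock output factor, was 6.68, 16.7, 167 and 124 on chow and 135, 138, 153 and 181 on HFD. Ciart, a repressor in the clock, was 1.8, 1.49, 19.5 and 16.3 on chow and 4.05, 23.7, 31.7 and 32.7 on HFD. Per3, a period gene, was 3.9, 5.08, 26.6 and 21 on chow and 13.8, 29.5, 25.8 and 30.7 on HFD. Chow libraries 1 and 2 were lowest for all 3, and chow libraries 3 and 4 lay nearer to HFD libraries 2 to 4. The genes known to peak in the opposite phase had the reverse order. Arntl, the gene of BMAL1, was 11, 5.61, 0.953 and 1.95 on chow and 2.27, 0.577, 0.272 and 0.53 on HFD. Npas2, its partner, was 10.1, 1.95, 0.0359 and 0.314 on chow and 1.7, 0.707, 0.603 and 0.41 on HFD, and Nfil3, a repressor that competes with Dbp, was 27.2, 21.3, 11.6 and 9.14 on chow and 17, 7.95, 5.96 and 6.55 on HFD. In these 3 genes HFD library 1 was the highest of the HFD livers, and for Ciart and Per3 it was the lowest. Of 23 clock genes, chow libraries 1 and 2 were the 2 lowest of the 8 mutant livers for 11 and the 2 highest for 4. By diet, 1 gene was higher (Per2, 0.95) and 1 lower (Arntl, -1.38) at an unadjusted p under 0.05, with 0 past the adjusted threshold. Per2 was 2.68, 3.19, 10.3 and 6.41 on chow and 5.81, 12.9, 11.5 and 14.1 on HFD. The list median was 0.21, and -0.048 without chow libraries 1 and 2. Leaving out single livers gave 0 to 7 higher clock genes, the most without chow library 3 (3.38% of all genes), and 0 to 2 lower. The time of day at which each liver was taken is not given in the sources used here, so its part in these values and in other rhythmic genes was not tested.

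**Figure D4:**
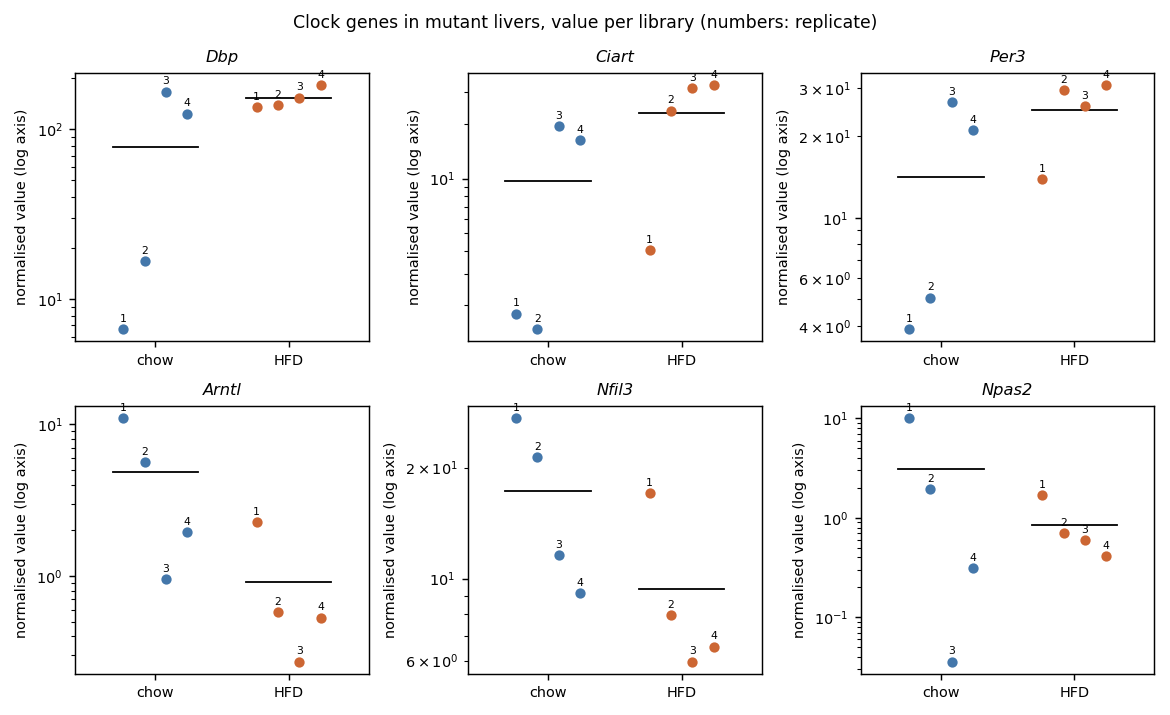
Normalised value (log axis) of 6 clock genes in each mutant liver on chow (blue) and HFD (orange), with replicate numbers and group means as lines. Chow libraries 1 and 2 are lowest for Dbp, Ciart and Per3 and are the 2 highest for Arntl, Nfil3 and Npas2.

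Clock factors bind short elements in the promoters of these genes: BMAL1 with its partners the E-box CACGTG, and Dbp and Nfil3 the D-box, searched as TTANGTAA. Sequences are shown for Ciart and Per3, whose values split the chow livers, with the element in capitals (RefSeq, GRCm38.p6). The Ciart stretch is chr3:95882313-95882370, minus strand, with the first of 3 E-boxes, 116 bases before the start, and the Per3 stretch is chr4:151044837-151044896, minus strand, with the first of 2 D-boxes, 205 bases before the start. None of the matches shown overlaps another of the motifs searched, while the E-box of Cry1 overlaps the letters searched as the sterol element.
Ciart: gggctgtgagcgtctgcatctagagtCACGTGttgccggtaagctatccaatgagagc
Per3: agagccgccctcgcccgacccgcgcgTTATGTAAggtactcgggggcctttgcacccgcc
On either strand within 250 bases before the start, the E-box letters were in 6 of 19 clock genes with a promoter (31.6%), namely Bhlhe41, Ciart, Cry1, Per1, Tef and Tspan4, against 9.82% of all tested genes with a promoter. The D-box letters were in Per3 alone (5.26%), against 1.79%.

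Secreted liver proteins with links to bone and metabolism had differences of both signs. Of 38 tested, 19 were positive and 19 negative (median -0.0056). At an unadjusted p under 0.05, 2 were higher and 2 lower, against 2.71% and 4.16% of all genes. Lect2, a secreted chemotactic hepatokine, was 213, 224, 252 and 230.3 on chow and 311, 305, 306 and 257 on HFD, without overlap (0.36, SE 0.103, limma adjusted p = 0.582). Rbp4, the plasma retinol carrier, was 2782, 2391, 3569.9 and 4057 on chow and 5007, 3653, 4078 and 3902 on HFD. Fetub, a fetuin, was 587, 991, 507 and 542 on chow and 429.9, 511, 555 and 435 on HFD, with chow library 2 far above the rest. Igfbp1 was the other lower gene. Wif1, a secreted inhibitor of Wnt proteins outside the list and named after its values were seen, was 0.126, 0.52, 0.296 and 0.151 on chow and 1.01, 1.19, 1.18 and 1.7 on HFD. Its groups did not overlap, with a difference of 0.84 (SE 0.168, limma adjusted p = 0.311) at values near the filter. Among the mutant livers only those on HFD reached the filter value of 1. Since the gene was picked from these same values, its separation and p are a description and not a test. Of 23 genes for gluconeogenesis and the insulin response, 0 were higher and 1, Igfbp1, was lower (median 0.12). Irs1, an insulin receptor substrate, was 4.39, 4.46, 5.22 and 5.67 on chow and 4.16, 7.02, 7.39 and 5.74 on HFD, and differed by -0.47 in controls (interaction 0.70, unadjusted p = 0.00911, and with the series term 0.49, unadjusted p = 0.0316).

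Female mouse liver owes part of its expression pattern to oestrogen and growth hormone signals. Of 33 female-biased genes, 3 were lower and 0 higher (median -0.09), against 4.16% and 2.71% of all genes. In controls the median was -0.58 with 11 lower and 1 higher, against 6.52% and 6.4% of all genes. Sult1e1, the oestrogen sulfotransferase, was 10.9, 18.8, 3.45 and 6.18 on chow and 2.34, 2.09, 1.61 and 3.79 on HFD (-1.47, SE 0.362, limma adjusted p = 0.421), with chow libraries 1 and 2 highest. Slc22a26, an organic anion transporter, was 156, 267, 129 and 125 on chow and 39.7, 116, 133 and 105 on HFD. Cyp2b13, a female-biased cytochrome P450, was 14.3, 5.04, 223 and 179.6 on chow and 514, 92.1, 119 and 120.4 on HFD, high in HFD library 1 and low in chow libraries 1 and 2. Summed over the 33 genes, HFD library 1 held 3966 and the next lowest of the 8 mutant livers 11076. The 4 control HFD livers held 2940 to 5492. Without HFD library 1 the median was 0.25. Of 19 male-biased genes, 2 were higher and 3 lower (median 0.085), against 2.71% and 4.16% of all genes. The 3 lower ones were Gadd45g (-1.37), Serpina1e (-0.51) and Elovl3 (-0.52), and Mup20 was among the higher. Mup20, a major urinary protein gene of a family of near-identical copies, was 3.86, 4.17, 10.1 and 9.62 on chow and 73.6, 9.27, 11.5 and 12.3 on HFD, with HFD library 1 far above the other mutant livers. Control livers held 11.7 ± 1.21 of Mup20 on chow and 34 ± 17.4 on HFD (SD, n = 4).

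Genes for foreign compounds and amino acids showed few differences with all libraries in the fit. Of 25 targets of the receptors CAR and PXR, 1 was higher and 3 lower (median -0.14), against 2.71% and 4.16% of all genes. Without chow libraries 1 and 2 the median was -0.38, with 0 higher and 6 lower, against 2.83% and 2.62% of all genes. Leaving out single livers gave 0 to 4 higher and 0 to 4 lower. Ces2a, a carboxylesterase, was 208, 134, 353 and 378 on chow and 130.5, 187, 198 and 144 on HFD, and Nr1i3, which encodes CAR, was 135, 93.2, 247 and 241 on chow and 317, 220.5, 233.9 and 249.8 on HFD. Both were lowest on chow in chow libraries 1 and 2. Without those libraries Ces2a differed by -1.16 (limma adjusted p = 0.0235), 1 of 2 genes called then, the other being Gm21286. With all libraries Ces2a differed by -0.60. That pair was left out after seeing the data and held the lowest chow values of Ces2a, so a larger difference follows from the choice. Only chow libraries 3 and 4 remained on chow in the mutants, and the p is not a separate test. Of 26 glutathione transferases and Nrf2 targets, 1 was higher (Cbr3, a carbonyl reductase, 0.61) and 0 lower (median 0.11). Of 33 genes of the urea cycle and amino acid breakdown, 0 had an unadjusted p under 0.05 (median -0.12), and the cytosolic chaperones also gave 0 of 11 (median 0.10). Of 17 hormone receptors, 0 reached that p (median -0.025). Ghr, the growth hormone receptor, was 406, 395, 413 and 379 on chow and 299, 502, 676 and 470.3 on HFD, and Lifr, the receptor of leukaemia inhibitory factor, was 282, 377, 218 and 163 on chow and 36.7, 293, 415 and 278 on HFD, both lowest in HFD library 1.

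Markers of other tissues and cell types gave small or uneven differences. Of 18 cell cycle genes, 2 were lower, Rrm2 (-0.74) and Top2a (-0.81), and 0 higher (median -0.028). With all libraries 4.16% of all genes were lower and 2.71% higher, for this list and those that follow. Without chow libraries 1 and 2 the cell cycle median was 0.42, with 6 higher and 0 lower, against 2.83% and 2.62% of all genes. Of 20 genes of collagens and stellate cell matrix, 1 was lower, Col4a1, a basement membrane chain that was 12.9, 11.3, 9.67 and 7.31 on chow and 6.79, 6.86, 6.04 and 6.03 on HFD, and 0 higher (median -0.1). Interferon response genes gave 0 of 32 (median -0.094). For antigen presentation by MHC class II, 0 of 9 had an unadjusted p under 0.05, and all 9 were negative (median -0.62, -0.15 without chow libraries 1 and 2). Without chow library 3, 7 of 9 were lower (median -0.94), in a fit where 6.94% of all genes were lower. Among lymphocyte markers 1 of 14 was lower (Nkg7 of cytotoxic cells, -1.05; median -0.18). Red blood cell markers gave 0 of 7 (median 0.28), bile duct and gallbladder markers 0 of 6 (median -0.082) and endothelial markers 0 of 12 (median -0.051). Of 9 adipose markers 2 were tested, and Fabp4, also held by macrophages, was 7.82, 4.56, 4.02 and 5.3 on chow and 10.1, 6.4, 6.32 and 7 on HFD. The defining adipose genes Adipoq, Lep and Cfd have no row in the table used. Pancreas and skeletal muscle markers had 2 tested genes each, with 0 at an unadjusted p under 0.05 and medians of 0.23 and -0.045. Of 11 hepatocyte markers, 2 were lower, Fgb and the antitrypsin gene Serpina1a (-0.36), and 0 higher (median -0.12).

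**Figure D5:**
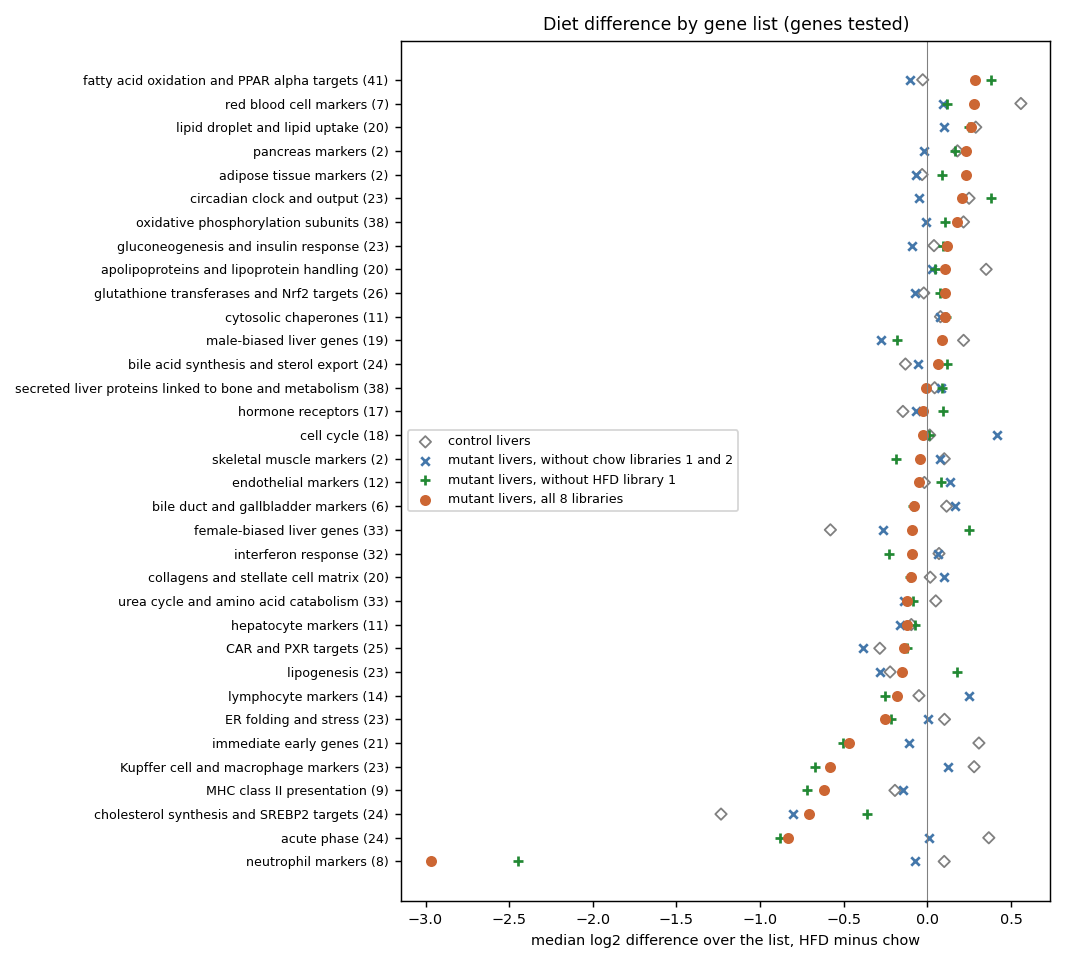
Median log2 difference, HFD minus chow (horizontal axis), of 34 gene lists with the number of tested genes in brackets, for mutant livers, for mutant livers without chow libraries 1 and 2 or without HFD library 1, and for control livers. The neutrophil list moves from -2.97 to -0.075 without chow libraries 1 and 2, and the cholesterol list from -0.71 to -0.36 without HFD library 1.

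Whether the diet difference in mutants was unlike that in controls was tested as an interaction. By limma, 0 genes passed the adjusted threshold (smallest adjusted p = 0.895), and 535 (4.21%) had an unadjusted p under 0.05. With the series term, 0 passed and 446 (3.51%) had an unadjusted p under 0.05. Gadd45g gave the smallest p, with an interaction of -2.49 (unadjusted p = 0.000211). Trmt13, a tRNA methyltransferase, was 6.24, 5.75, 4.84 and 4.21 on chow and 8.37, 7.62, 8.74 and 10 on HFD in mutants, without overlap, and 7.09 ± 0.524 on chow and 5.31 ± 1.34 on HFD in controls (SD, n = 4). Thap1, a zinc finger factor, was 16.9, 14.4, 10.7 and 13.9 on chow and 9.74, 6.51, 8.35 and 6.96 on HFD in mutants, without overlap, and 9.33 ± 1.03 and 11.3 ± 2.79 in controls. Hsd17b14, a steroid dehydrogenase, differed by 0.10 in mutants and by -0.79 in controls. The interactions of the last 3 were 1.02, -0.98 and 0.89. With the series term the Gadd45g interaction was -2.45 (unadjusted p = 0.0013), and the other 3 were 0.89, -0.96 and 0.84.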

How the data were processed

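Total RNA from liver was sequenced as bulk libraries. The authors assigned reads to mouse transcripts of mm10 with kallisto and summed them per gene for sleuth; versions, annotation release and filters are not given in the sources used here. The deposited values are a normalised signal per gene, not counts. They are fractional, and their column totals differ, so they were read as TPM-like values adjusted by size factors. This scale keeps no sequencing depth, so no counting interval was computed, and precision rests on the spread between the 4 livers of a group.

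Genes with a value of at least 1 in at least 4 of the 16 libraries were kept. Differences on log2(value + 1), which understates changes of low genes, were fitted with limma 3.58.1 in R 4.3.3 as 4 group means over all 16 libraries, with a variance trend, and adjusted over 12704 genes by Benjamini-Hochberg at 0.05. The script was tested on simulated data. P-values measure the spread between these libraries. Up to 12 genes per direction, by smallest p among those with separate groups and an absolute difference of at least 1, were named, with Esr1, genes called without HFD library 1, up to 4 per list and the 4 smallest interaction p-values. Other genes were picked with their values in view, among them Alb, Eci3, Dbp, Npas2, Scd1 and further list members printed to show a list's spread. Members and the 34 lists were chosen with earlier results of these data known. Replicates were numbered in accession order and pair nothing. Positions are from GENCODE M21 (GRCm38), by gene identifier. Promoter sequences are from RefSeq (GRCm38.p6), matched by symbol for 77 of 92 named genes. Alternatives were median-of-ratios scaling, no filter or a filter at 5, a pseudocount of 0.1, only mutant libraries, library weights and each library left out. Another kept 1 title series per diet among the mutants, with all control libraries in the fit. Added after seeing the data were chow libraries 1 and 2 left out together and, for the interaction, a title series term within each diet.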

Additional observations from a re-analysis of the deposited data

Results flagged for a closer look

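In 14 of 184 groups of 4 mutant libraries (7.61%), over the 92 named genes, 1 library lay far from the other 3 by Dixon's criterion. The criterion flags about 1 in 20 by chance for independent, normally spread values. These genes were chosen from the same data, Tsku because it was called without HFD library 1. The share is thus a description and not a test. HFD library 1 stood apart in 6 of them. It held 3.54 of Tsku, against 54.5 to 58.0 in the other HFD livers, and 6.42 of Esr1, against 20.5 to 22.9. It was above the other mutant HFD livers in Ifi27, an interferon-induced gene (308), in Bpgm, a red blood cell enzyme (16.3), in Mup20 (73.6) and in Arntl (2.27). In control HFD livers Esr1 was 7.21 ± 0.825 and Mup20 34 ± 17.4, while Tsku was 16.6 ± 3.52 (SD, n = 4). Chow library 2 stood apart in 4 groups, with 41.0 of Cog6, 4650.2 of Orm2, 5541 of Mt2 and 991 of Fetub, each the highest of the chow livers. Chow library 1 held 120.4 of Ifi27, against 87.8 to 92.8 in the other chow livers. Chow library 4 held 0.791 of the pseudogene Gm46415, which the other chow libraries list at 0, and HFD library 2 held 0.0452 of Gm5898, which the other HFD libraries list at 0. HFD library 4 was the lowest HFD liver for Lect2, at 257 against 305 to 311.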

How the results depend on the processing

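No paired analysis was possible because the labels give no replicate numbers. The count of genes past the adjusted threshold by diet was 0 under both filters, the other scaling and the other pseudocount, 1 with only the 8 mutant libraries, 9 with library weights, 2 with 1 title series per diet, 2 without chow libraries 1 and 2, and 0 to 2 when single libraries were left out. At an unadjusted p under 0.05 it was 872 genes, 1364 with library weights and 607 to 1312 when single libraries were left out, the most without chow library 3. For the interaction, 0 genes passed in each fit run. Unadjusted there were 535, 3261 with library weights, 446 with a series term, and 344 to 1761 when single libraries were left out, the most without control HFD library 4. With 1 title series per diet in the mutants alone there were 1060. Control livers of both series stayed in that fit, so it does not take the series out of the interaction. Of 1452 values of 92 named genes under the alternatives, 1447 kept their sign and 9 passed the threshold. The sign turned for Cyp4a14 (-0.44), Ly6c2 (0.23), Ccr2 (0.012) and Cela1 (-0.10) without chow libraries 1 and 2, and for Hsd17b14, which ran from -0.0033 to 0.23 when single libraries were left out. Of 543 list medians, 528 moved by less than 1 SD, a limit that large shifts can fall under. Without chow libraries 1 and 2 the acute phase median went from -0.83 to 0.0073. The fatty acid oxidation median went from 0.28 to -0.11, and neither counted as moved. The cause of these shifts was not tested. With 4 livers a group and no known depth, small differences of low genes could not be judged.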
